A study of Mus musculus with 4 samples.

Results

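In MC3T3-E1 cells, a mouse pre-osteoblast line, 6 genes for non-coding RNAs were followed: the vault RNA Vaultrc5, the nuclear long non-coding RNAs Malat1, Neat1 and Lncpint, and the small nucleolar RNA (snoRNA) host genes Gas5 and Snhg1. The genes with values were selected on their day 7 minus day 3 differences in log2 value on these same arrays, which were known beforehand. Those differences are therefore a description and carry no test. Array features were taken by gene symbol in the platform annotation, which gave 8 of 35556 features: 1 of Vaultrc5, 1 of Lncpint, 4 of Gas5, 1 of Malat1 and 1 that names both Malat1 and Ramp2. No feature carried the symbol Neat1 or Snhg1, so the values below cover 4 of the 6 genes, and the transcripts of those other two genes were not analysed here.

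There were 4 groups with 1 Affymetrix whole-transcript array each: cells given citalopram, a selective serotonin reuptake inhibitor, at 100 µM for 7 days or for 3 days, and untreated control cells in proliferation medium at day 7 or at day 3. All groups were of the same C57BL/6-derived line, seeded at 50000 cells per well in medium with 1% fetal bovine serum. The labels describe 3 treated and 3 untreated wells and do not say whether wells were pooled for an array. The design asks how citalopram changes expression in these cells relative to proliferation medium alone. With no replicate in any group, differences between 2 arrays have no measured error.

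Vault RNAs are short transcripts of RNA polymerase III that are carried in part by the vault, a large hollow particle of the cytoplasm built mostly of major vault protein. Malat1 is an abundant, mostly unspliced RNA of nuclear speckles, where splicing factors gather, and Neat1 is the scaffold of the neighbouring paraspeckles. Lncpint is a p53-regulated transcript known for an association with polycomb repressive complex 2. Gas5 and Snhg1 are spliced RNAs whose introns hold box C/D snoRNAs, the guides for methylation of ribosomal RNA. The spliced Gas5 RNA is degraded by nonsense-mediated decay when it is translated, accumulates when growth stops, and has been described as a decoy for the glucocorticoid receptor.

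The promoters of Gas5, Malat1 and Lncpint are shown so that the host gene can be read beside the 2 nuclear transcripts. No promoter of Vaultrc5 was examined. Each run holds 250 bases before and 50 bases after the annotated start, 5′ to 3′ on the gene's strand, from RefSeq on GRCm38.p6. Capitals mark matches on either strand to any of 5 short motifs. These were the TATA box (TATAAA), the CCAAT box, the GC box (GGGCGG), the cyclic AMP response element (TGACGTCA) and the E-box (CACGTG).
Gas5, chr1:161034916-161035215, plus strand: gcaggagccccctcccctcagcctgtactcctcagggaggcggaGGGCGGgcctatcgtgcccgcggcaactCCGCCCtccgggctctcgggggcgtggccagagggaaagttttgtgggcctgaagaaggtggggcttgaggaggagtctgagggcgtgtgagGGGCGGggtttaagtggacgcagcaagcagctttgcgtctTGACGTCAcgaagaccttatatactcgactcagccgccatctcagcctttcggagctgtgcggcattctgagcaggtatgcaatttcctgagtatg
Malat1, chr19:5802623-5802922, minus strand: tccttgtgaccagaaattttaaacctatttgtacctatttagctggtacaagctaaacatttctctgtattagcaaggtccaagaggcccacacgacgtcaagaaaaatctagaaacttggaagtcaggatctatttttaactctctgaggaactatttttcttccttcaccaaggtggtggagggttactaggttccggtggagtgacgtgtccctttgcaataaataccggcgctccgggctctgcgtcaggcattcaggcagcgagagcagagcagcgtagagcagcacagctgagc
Lncpint, chr6:31218425-31218724, minus strand: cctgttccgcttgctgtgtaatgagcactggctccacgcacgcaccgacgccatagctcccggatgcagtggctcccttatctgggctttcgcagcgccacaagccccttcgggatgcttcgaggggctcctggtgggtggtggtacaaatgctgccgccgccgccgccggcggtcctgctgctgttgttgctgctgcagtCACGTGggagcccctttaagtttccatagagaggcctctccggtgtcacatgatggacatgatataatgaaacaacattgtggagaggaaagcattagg

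The Gas5 window held TGACGTCA starting 46 bases before the start, which 1.79% of 32851 RefSeq promoter windows of the same length also held. It held GGGCGG 3 times, against at least 1 match in 35.7% of all windows. The Gas5 transcript annotated from this start began with an unbroken run of 5 pyrimidines. A pyrimidine run at the start is a feature of the terminal oligopyrimidine class of mRNA, to which Gas5 is known to belong. A second annotated Gas5 start, at chr1:161034351-161034650, held GGGCGG 5 times and no TGACGTCA, and its transcript began with a purine. The Lncpint window held CACGTG starting 49 bases before the start, as did 7.15% of all windows. The Malat1 window held none of the 5 motifs. These matches describe letters in the windows, and binding was not measured.

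A value was read as above the floor when it reached the 40th percentile of features with a symbol on its array, which lay between 6.01 and 6.07. All 8 features of the 4 genes stood above it on all 4 arrays. Of 11 osteoblast markers 7 were measured and 6 were above the floor on at least 1 array. Col1a1, a chain of the type I collagen of bone matrix, lay between 11.9 and 12.6, while Ibsp, the late marker bone sialoprotein, was below the floor on every array. Of the 6 markers listed for each of the other cell types, 1 was above the floor on at least 1 array for adipocytes, 3 for chondrocytes, 2 for macrophages, 1 for endothelium and 4 for muscle. Of the 3 chondrocyte markers, the collagen Col2a1 was higher at day 7, at 10.37 at day 7 and 9.89 at day 3 with citalopram, and at 10.60 at day 7 and 9.37 at day 3 in control. The day difference of Sox9 was -0.22 with citalopram and -0.09 in control, and that of Col9a1 was 0.11 with citalopram and 0.02 in control. The part of these markers in the results below was not tested.

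Vaultrc5 had the highest day 7 minus day 3 difference of all features with a symbol above the floor, in both treatments. Its level was 10.06 at day 7 and 7.06 at day 3 with citalopram, and 9.76 at day 7 and 7.06 at day 3 in control. Both day 7 arrays were high and both day 3 arrays were low, with no overlap between the days. The day difference of log2 values was 3.00 with citalopram, or 7.99-fold, and 2.70 in control, or 6.49-fold.

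**Figure D1:**
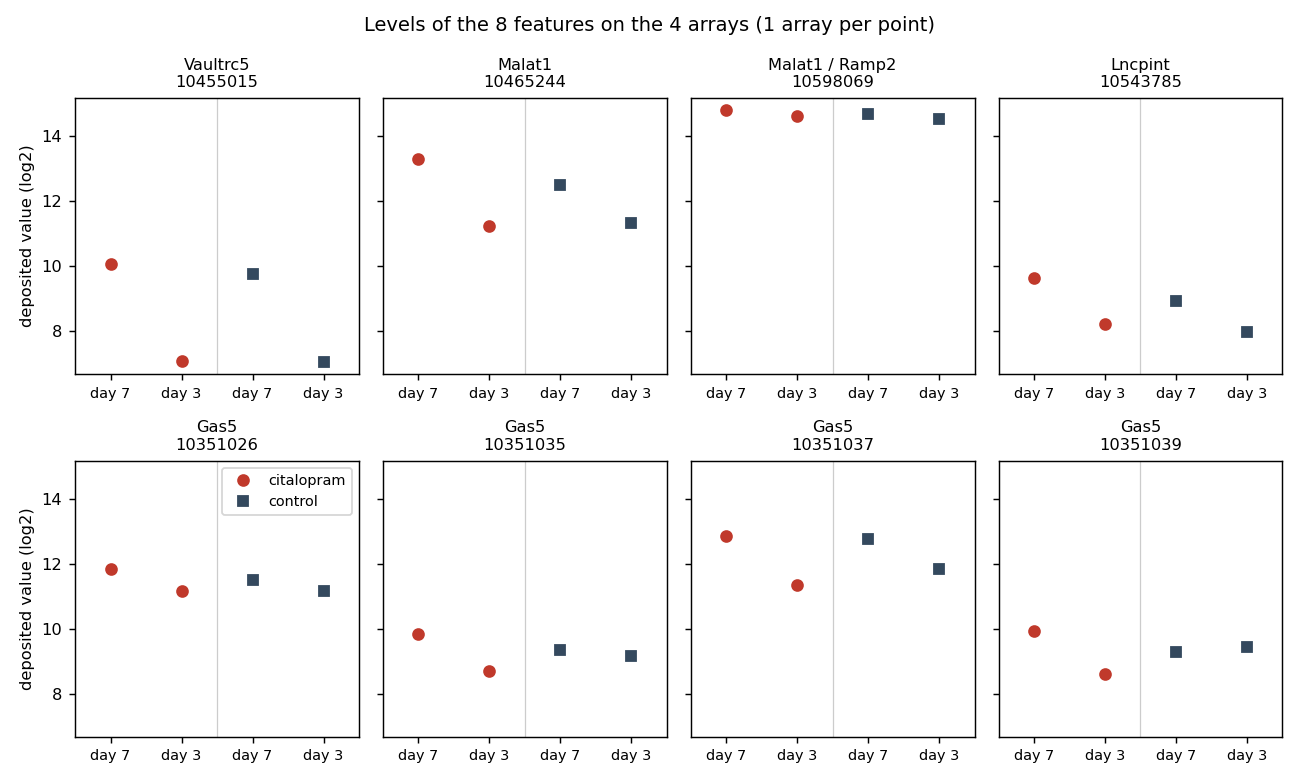
Deposited log2 value of each of the 8 features, in panels by feature, on the 4 arrays, with day 7 left of day 3 and citalopram (circles) left of control (squares). Each point is 1 array, so there are no error bars. The Vaultrc5 feature and the single-gene Malat1 feature are higher on both day 7 arrays, and the feature that names Malat1 and Ramp2 spans only 14.52 to 14.78.

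Mvp and the genes listed for vault RNA processing differed far less between days than Vaultrc5, which was chosen on that difference. Of 9 genes listed for vault particle proteins and vault RNA processing, 6 were measured with 1 symbol and none reached 1.5-fold in any of the 4 comparisons. Their median day difference was 0.08 with citalopram and -0.03 in control, beside -0.02 and -0.01 over all features with a symbol. Among these 6, only Mvp, the major vault protein, is a protein of the particle. It was at 9.46 at day 7 and 9.12 at day 3 with citalopram, and at 9.12 on both control days. A feature that names both Parp4, another vault protein, and Mphosph8 was not counted. Its day difference was 0.20 with citalopram and 0.08 in control. The day difference of Ssb, the La protein that binds new RNA polymerase III transcripts, was -0.05 with citalopram and -0.23 in control. That of Nsun2, an RNA methyltransferase that modifies vault RNA in human cells, was 0.05 with citalopram and -0.13 in control.

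Other short RNAs made by RNA polymerase III varied among themselves. Of 10 listed, 6 were measured, of which 3 were at least 1.5-fold higher at day 7 with citalopram and 2 in control, and with each array centred on its median 2 in each. Rpph1, the RNA of ribonuclease P, which trims tRNA precursors, had a day difference of 1.06 with citalopram and 1.19 in control. Rmrp, the RNA of the related ribonuclease MRP, had 0.86 with citalopram and 1.00 in control. Rny1, a Y RNA, differed with citalopram by 0.69 and in control by -0.03, and Rnu6, the U6 spliceosomal RNA, by -0.35 with citalopram and 0.39 in control. The brighter feature of Rn7sk, the RNA that holds back a transcription elongation factor, had 0.35 with citalopram and 0.05 in control. The other Rn7sk feature had 0.39 with citalopram and 0.39 in control. The list's median was 0.55 with citalopram and 0.46 in control, and its highest value was below both Vaultrc5 differences. Features that name both Rn7s1 and Rn7s2 were not counted, as they carry more than 1 symbol. Their day difference was 1.20 with citalopram, above every counted RNA of the list, and 0.63 in control.

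The polymerase and its factors had no such difference as a list. Of 28 genes, 26 were measured, with a median day difference of 0.08 with citalopram and -0.07 in control, and none was 1.5-fold higher. Polr3g, a polymerase III subunit known from stem cells and proliferating cells, was the lowest, at -0.85 with citalopram and -0.52 in control. Maf1, the repressor of RNA polymerase III, was the highest by the mean of both, with a day difference of 0.50 with citalopram and 0.55 in control.

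Malat1 had the second largest day difference of the 8 features in both treatments. The feature that names Malat1 alone stood at 13.28 at day 7 and 11.24 at day 3 with citalopram, and at 12.50 at day 7 and 11.33 at day 3 in control. Both day 7 values lay above both day 3 values, and the citalopram day 7 array was the highest of the 4. The day difference was 2.05 with citalopram, or 4.13-fold, ranked 24 from the top, and 1.17 in control, or 2.25-fold, ranked 48.

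The feature that names both Malat1 and Ramp2, a receptor-modifying protein gene, did not share this difference. Its level was 14.78 at day 7 and 14.60 at day 3 with citalopram, and 14.66 at day 7 and 14.52 at day 3 in control. The 4 values spanned less than 0.3, with day differences of 0.18 with citalopram and 0.14 in control. On each array between 99.98% and 99.99% of features with a symbol lay below this feature. Whether signal near the top of the range limited its differences was not tested. A mean over both features would put the Malat1 day difference with citalopram at 1.11. Which of its 2 genes this feature measured cannot be told apart from these files.

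Lncpint, on a single feature, also had higher values on both day 7 arrays. It was at 9.61 at day 7 and 8.20 at day 3 with citalopram, and at 8.93 at day 7 and 7.98 at day 3 in control. The days did not overlap, and citalopram was above control on each day. The day difference was 1.41 with citalopram, or 2.66-fold, ranked 70 from the top, and 0.95 in control, or 1.93-fold, ranked 88.

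Among proteins of the nuclear bodies in which Malat1 and Neat1 sit, few differed between days by 1.5-fold. Of 20 nuclear speckle and SR splicing genes, 19 were measured and none reached 1.5-fold between days, with a list median of 0.01 in both treatments. Son, a large speckle scaffold protein, was the highest by the mean of both day differences, at 0.57 with citalopram and 0.36 in control, and 1 gene of the list passed 1.5-fold with citalopram after quantile normalization or cyclic loess. Of 16 paraspeckle protein genes 13 were measured, with a median of 0.22 with citalopram and 0.06 in control. Tardbp, the RNA-binding protein TDP-43, was the lowest of these and the one past 1.5-fold, at -0.60 with citalopram and -0.49 in control, and it was not past 1.5-fold after quantile normalization or cyclic loess. The highest were Ewsr1 and Taf15, RNA-binding proteins of one family, with 0.41 and 0.48 with citalopram, against 0.18 and 0.03 in control. Nono and Sfpq, the pair of proteins that build the paraspeckle with Neat1, had day differences of -0.04 and 0.26 with citalopram, against 0.02 and 0.17 in control.

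The 10 genes of polycomb repressive complex 2, with which Lncpint has been described to associate, had a median day difference of -0.03 with citalopram and -0.07 in control, and none reached 1.5-fold, though 1 was 1.5-fold lower with citalopram after median centring. Ezh2, its methyltransferase, was lowest, at -0.48 with citalopram and -0.08 in control. Of 34 other long non-coding RNA genes 14 were measured and 9 were above the floor, of which 2 were at least 1.5-fold higher at day 7 with citalopram and none in control. Those were Dnm3os, the host of a pair of microRNAs, at 0.74 with citalopram and 0.13 in control, and Mir99ahg, another microRNA host, at 0.64 with citalopram and 0.54 in control. After quantile normalization 1 gene of the list was 1.5-fold higher with citalopram, and with each array centred on its median none was. The median of the 9 was 0.35 with citalopram and 0.10 in control. Tug1 and Norad, which are abundant long non-coding RNAs, had day differences of -0.18 and -0.30 with citalopram, against -0.11 and -0.10 in control.

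The 4 Gas5 features did not move together. The brightest, 10351037, was at 12.84 at day 7 and 11.33 at day 3 with citalopram, and at 12.74 at day 7 and 11.82 at day 3 in control. Its day difference was 1.52 with citalopram, or 2.86-fold, and 0.92 in control, or 1.89-fold, with no overlap between the days. Feature 10351026, for which the annotation lists 4 accessions, was at 11.83 at day 7 and 11.16 at day 3 with citalopram, and at 11.50 at day 7 and 11.16 at day 3 in control. Both of its day 7 values were above its day 3 values, by 0.67 with citalopram and 0.33 in control.

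The remaining Gas5 features differed most between the treatments. Feature 10351035 was at 9.84 at day 7 and 8.71 at day 3 with citalopram, and at 9.35 at day 7 and 9.15 at day 3 in control, with day differences of 1.13 and 0.20. Feature 10351039 was at 9.91 at day 7 and 8.60 at day 3 with citalopram, and at 9.28 at day 7 and 9.44 at day 3 in control. Its day difference was 1.31 with citalopram and -0.16 in control, the only one of the 16 day differences below 0. For both features the control arrays lay between the citalopram arrays, which were the highest at day 7 and the lowest at day 3. The mean over the 4 Gas5 features gave a control day difference of 0.32, against 0.92 for the brightest feature.

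Snord47, a box C/D snoRNA encoded in a Gas5 intron, had its own feature. Among 12654 searched features with 1 symbol, Snord47 was the other gene closest to the brightest Gas5 feature over the 4 arrays. It was at 12.15 at day 7 and 10.48 at day 3 with citalopram, and at 12.05 at day 7 and 11.13 at day 3 in control. Its day difference was 1.66 with citalopram and 0.92 in control. Snord22, encoded in a Snhg1 intron, was at 7.78 at day 7 and 7.16 at day 3 with citalopram, and at 7.72 at day 7 and 7.58 at day 3 in control. This gave 0.62 with citalopram and 0.14 in control, and it is a value of the snoRNA, not of the Snhg1 transcript.

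At each gene's brightest feature, the other non-coding snoRNA hosts above the floor also had positive day differences, smaller than that of the brightest Gas5 feature. Of 19 such genes besides Gas5, 6 were measured and 5 were above the floor. All 5 were higher at day 7 in both treatments, 2 of them by at least 1.5-fold in each, with a median of 0.54 with citalopram and 0.26 in control. With each array centred on its median, 4 of the 5 were higher with citalopram and 3 in control, at medians of 0.38 and 0.15. At least 1.5-fold higher with citalopram was only 1 of the 5 under each of the 3 scalings, and in control 2 after quantile normalization or cyclic loess and 1 after centring. Snhg15 had 0.60 with citalopram and 0.70 in control. Snhg5 had 0.39 with citalopram and 0.10 in control, and Dancr, a host gene also known as an inhibitor of differentiation, had 0.05 with citalopram and 0.09 in control.

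Snhg17, like Gas5, had features that disagreed. Its 3 features had day differences of 0.82, 1.17 and -0.29 with citalopram, and of 0.69, 0.96 and 0.16 in control. Features shared between a host and its snoRNA stood at 0.63 with citalopram and 0.34 in control for Snhg7 with Snora43, and at 0.24 with citalopram and 0.23 in control for Snhg8 with Snora24.

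Hosts that encode proteins lay near the median of all features. Of 15 listed, 11 were measured, with a median of 0.04 in both treatments, and Eif4a2, a translation initiation factor, was the sole gene at 1.5-fold, at 0.74 with citalopram and 0.07 in control. Across the array, 27 snoRNA features had a single host gene in RefSeq that was itself measured, 21 hosts in all. The median day difference of these snoRNAs was 1.14 with citalopram and 0.69 in control, while that of their hosts was -0.01 with citalopram and 0.05 in control. In each treatment 26 of the 27 snoRNAs had a larger difference than their host, though several share a host and all share the same arrays. Each host was read at its brightest feature with 1 symbol, 1 of 14 for Rps12 and 1 of 13 for Rpl23a. Whether that feature lies at the host copy that holds the snoRNA was not checked.

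The list of proteins that assemble snoRNAs into particles had medians below 0 in both treatments. Of 15 genes, 14 were measured, with a median day difference of -0.09 with citalopram and -0.14 in control. Dkc1, the pseudouridine synthase of box H/ACA particles, was at -0.78 with citalopram and -0.62 in control. Naf1, an assembly factor of the same particles, was at -0.41 with citalopram and -0.69 in control. None of the 14 was 1.5-fold higher in either treatment.

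Lists tied to what Gas5 is known for were mixed. Of 14 nonsense-mediated decay genes 10 were measured, with a median day difference of 0.13 with citalopram and -0.12 in control. Smg1, the kinase that acts on Upf1, stood highest, at 0.61 with citalopram and 0.69 in control. Of 10 genes of the glucocorticoid receptor and its targets 9 were above the floor, with a median of -0.13 with citalopram and 0.15 in control. Errfi1 was the lowest, at -0.81 with citalopram and -0.40 in control, and the sole gene at least 1.5-fold lower with citalopram. Fkbp5, a classical target, was at -0.44 with citalopram and -0.53 in control. Mt2, a metallothionein, was at 0.38 with citalopram and 0.65 in control, the sole gene at least 1.5-fold higher in control. With each array centred on its median, 2 genes were 1.5-fold lower with citalopram, while in control 1 was lower and none was higher. Nr3c1, the receptor itself, had 0.30 with citalopram and 0.14 in control.

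**Figure D2:**
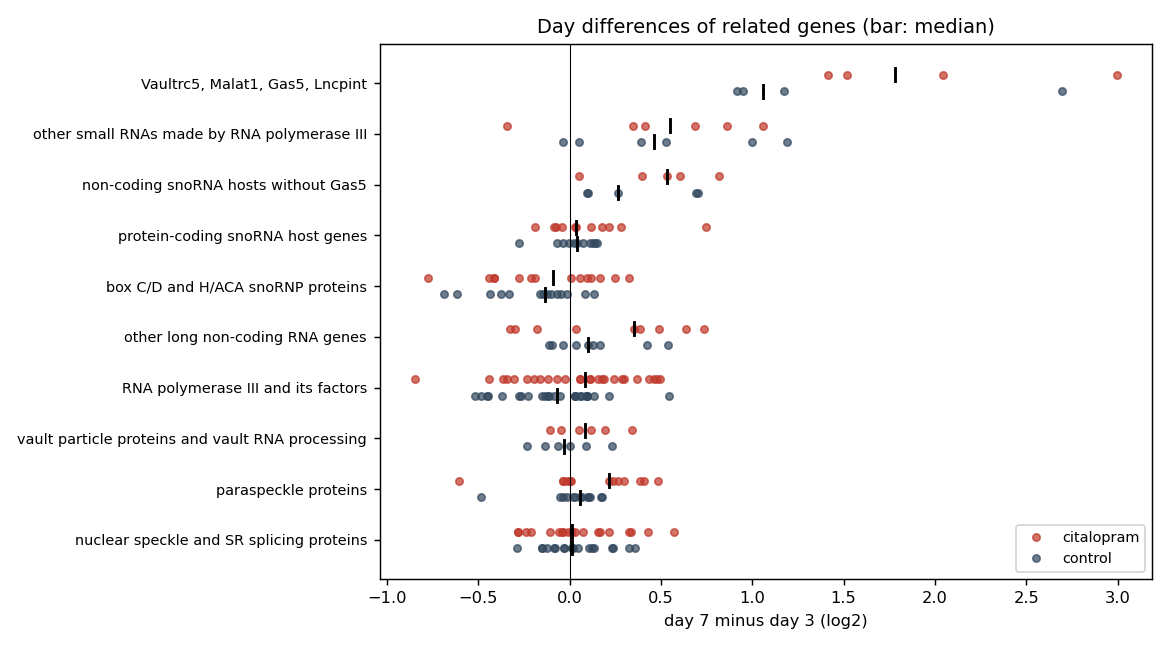
Day 7 minus day 3 difference in log2 value for each measured gene above the floor, by list, with citalopram above control in each list and a bar at the median. Each point is 1 gene, at its brightest single-gene feature. The 4 genes of this account lie between 0.92 and 3.00, and the medians of the protein lists lie between -0.14 and 0.22.

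Against the whole array, the 8 features stood apart in the direction for which they were chosen, and nothing is read from that. With citalopram all 8 were higher at day 7, 7 by at least 1.5-fold and 6 by at least 2-fold, while over all features with a symbol 2.62% passed the smaller and 0.824% the larger of those thresholds. In control 7 were higher, 4 by at least 1.5-fold and 2 by at least 2-fold, beside 1.48% and 0.524% of all features with a symbol. None of the 8 was 1.5-fold lower at day 7, beside 2.52% of all with citalopram and 1.22% in control. The median of the 8 day differences was 1.36 with citalopram and 0.63 in control, against -0.02 and -0.01 over all.

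**Figure D3:**
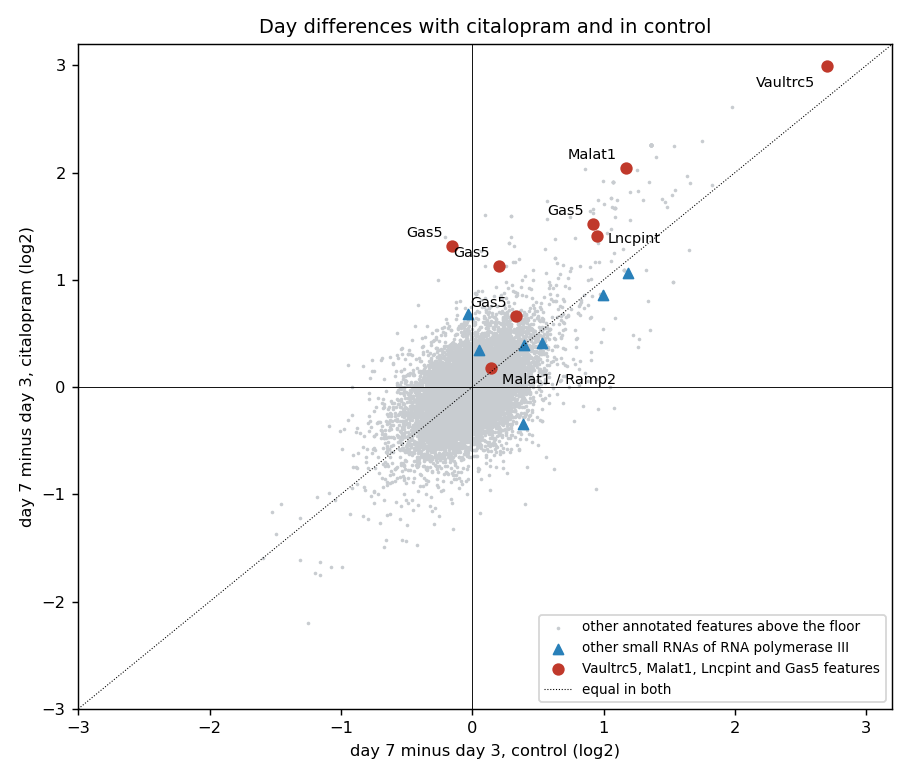
Day 7 minus day 3 difference in log2 value with citalopram (vertical axis) against that in control (horizontal axis). Grey points are other features with a symbol above the floor, triangles are other RNA polymerase III RNAs, and large circles are the 8 features, all of which lie above the dotted line of equal differences. The genes of the 8 features were selected on these day differences, and the share of grey points above the line was not counted.

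A wider set of features moved with the day. Of features that carry no gene symbol and passed the floor, 983 of 7599, or 12.9%, were at least 2-fold higher at day 7 with citalopram, and 321 of 7357, or 4.36%, in control. In the other direction 0.355% with citalopram and 0.652% in control were at least 2-fold lower. The array medians over all features were 6.66 at day 7 and 6.50 at day 3 with citalopram, and 6.60 at day 7 and 6.50 at day 3 in control. The part of this shift in the values of the 8 features was not tested. Centring each array on its median left the day difference of Vaultrc5 at 2.84 with citalopram and 2.59 in control, and that of Malat1 at 1.89 with citalopram and 1.06 in control. Small list medians took the other sign under that centring. With citalopram they became -0.07 for vault proteins and vault RNA processing, and -0.07 for RNA polymerase III and its factors. Also with citalopram, they became -0.14 for speckle proteins, -0.12 for protein-coding hosts and -0.02 for nonsense-mediated decay. In control they became -0.10 for speckle proteins, -0.05 for paraspeckle proteins, -0.07 for protein-coding hosts and -0.01 for other long non-coding RNAs. The list of other RNA polymerase III transcripts stayed at 0.39 with citalopram and 0.35 in control.

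Genes beside the members on the chromosome were chosen after the members' values were seen, and their day differences lay between -0.02 and 0.50. Zmat2, next to Vaultrc5, had a day difference of 0.36 with citalopram and 0.11 in control. Frmd8, next to Malat1, had 0.20 with citalopram and 0.12 in control. Mkln1 and Klf14, on either side of Lncpint, had 0.27 and 0.09 with citalopram, against 0.16 and 0.17 in control. Cenpl and Serpinc1, on either side of Gas5, had 0.06 and 0.02 with citalopram, against 0.50 and 0.03 in control. Cenpl was also more than 1.5-fold lower with citalopram at day 7, by a log2 difference of -0.62. Slc3a2 and Wdr74, on either side of Snhg1, had 0.09 and 0.01 with citalopram, against 0.14 and -0.02 in control.

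By Euclidean distance between the 4 values, each feature centred on its own mean, the features most like a member were mostly small nucleolar RNAs, with 1 Cajal body RNA, Scarna17. The search covered 12654 features with 1 symbol that were above the floor on at least 1 array. Features with no symbol were left out, as were some classes of symbol, such as those that start with Gm or Mir or end in Rik. For Vaultrc5 they were Snora74a, Snora73b and Snord53, at distances of 0.583, 1.08 and 1.10. For Malat1 they were Scarna17, Snord104 and Snord15a, between 0.337 and 0.409. For the brightest Gas5 feature they were Snord47, Snord57 and Snord14e, between 0.131 and 0.173. Lncpint differed from the others here, since its closest features were the protein-coding genes Ahnak2, Thsd4 and Csmd3, between 0.154 and 0.201. These likenesses rest on 4 arrays and are given without a test.

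The comparison of citalopram with control is the one for which the study was set up. At day 7 all 8 features were higher with citalopram, as were 52.7% of all features with a symbol, and 3 of them by at least 1.5-fold, beside 0.797% of all at that size. None was at least 1.5-fold lower, beside 0.881% of all. Both day 7 arrays also enter the day differences on which the genes were chosen, and 4 of the 8 features are of Gas5. Nothing is read from these counts. Malat1 was at 13.28 with citalopram and 12.50 in control, a difference of 0.78, or 1.72-fold. Lncpint was at 9.61 with citalopram and 8.93 in control, a difference of 0.69, or 1.61-fold. Gas5 feature 10351039 was at 9.91 with citalopram and 9.28 in control, a difference of 0.63, or 1.55-fold. Vaultrc5 differed by 0.31.

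At day 3, whose arrays also enter the day differences used to choose the genes, the pattern was mixed. Of the 8 features 3 were higher with citalopram and none by 1.5-fold, beside 0.497% of all. Gas5 feature 10351039 was 1.79-fold lower, at 8.60 with citalopram and 9.44 in control, and was the one member past 1.5-fold downward, beside 0.392% of all. The differences for the other 3 Gas5 features were -0.50, -0.44 and -0.00. Malat1 differed by -0.09, Vaultrc5 by 0.01 and Lncpint by 0.22. The median of the 8 was 0.41 at day 7 and -0.05 at day 3, against 0.01 and 0.02 over all features with a symbol.

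**Figure D4:**
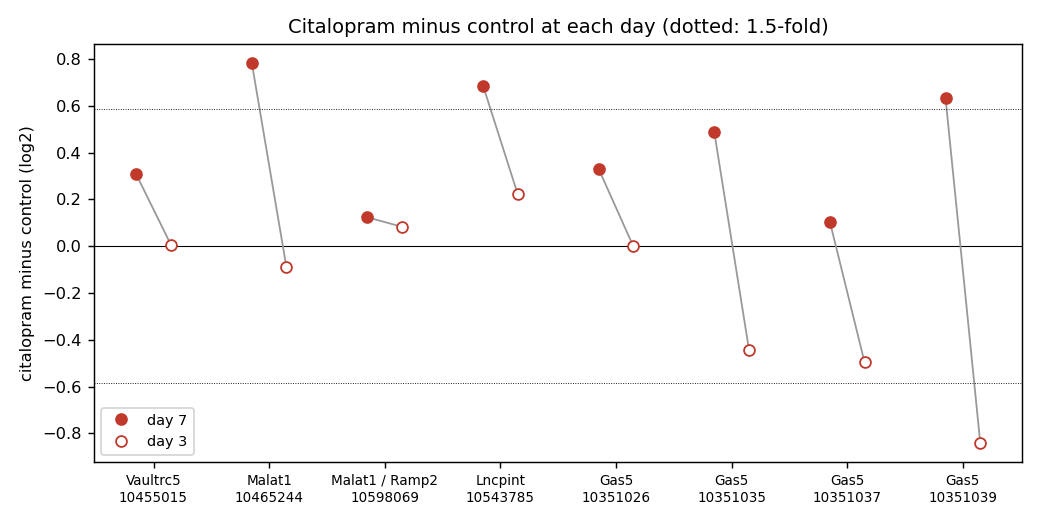
Citalopram minus control difference in log2 value for each of the 8 features, with day 7 (filled circles) left of day 3 (open circles) and a line joining the same feature. Dotted lines mark 1.5-fold, each point comes from 1 pair of arrays, and every day 7 point lies above its day 3 point.

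Over both days together, limma's additive model of treatment and day called none of 14546 features at an adjusted p below 0.05, or 0.0%, while 1231 had an unadjusted p below 0.05. Lncpint had the largest citalopram effect of the 8 relative to its error, 0.45 ± 0.13 (SE, 4 arrays), higher with citalopram on 2 of 2 days. Its limma p was 0.0122 before adjustment and 0.504 after it, with adjusted values between 0.151 and 1.00 under the alternatives. Malat1 had an effect of 0.35 ± 0.20 and a limma adjusted p of 0.720, with citalopram higher on 1 of 2 days. Vaultrc5 had 0.16 ± 0.12 and a limma adjusted p of 0.802. The effects of the 4 Gas5 features ran between -0.20 and 0.16, and the lowest of their limma adjusted p-values was 0.796.

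The difference between days was larger with citalopram than in control for all 8 features in the deposited values. This excess shares all 4 values with the day differences on which the genes were chosen, and its share over all features was not counted. The 27 snoRNA features with a measured host also had a larger median with citalopram, 1.14 against 0.69 in control. Of features with no symbol that passed the floor, 12.9% were at least 2-fold higher at day 7 with citalopram and 4.36% in control. The excess was 1.47 for Gas5 feature 10351039, 0.93 for 10351035, 0.60 for 10351037 and 0.33 for 10351026. It was 0.87 for Malat1, 0.46 for Lncpint and 0.30 for Vaultrc5. For the feature shared with Ramp2 it was 0.04, and it turned to -0.01 when each array was centred on its median. These contrasts use all 4 arrays once each, so they have no measured error and were not tested.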

How the data were processed

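The files hold 1 log2 expression value per feature for each of 4 arrays, made by the authors and used as deposited. No source states the log base, which was taken from the range of values. Partek is named, with no version, per the submitters' processing notes; background correction, normalization, probe summarization and genome build were not given in the sources used here. If arrays were equalised, a shift common to most transcripts would be hidden. Whole-transcript arrays sum probes along a feature, so exonic, intronic and snoRNA sequence of a host may fall in different features.

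The members and the 21 gene lists were chosen with earlier results of these data known. Features were named from the platform annotation, with 12146 carrying no symbol, 21789 carrying 1 and 1621 several. A feature entered a comparison when its brighter array reached the 40th percentile of features with a symbol on that array. Differences of log2 values were counted at 1.5-fold and 2-fold. Lists used each gene's brightest feature with 1 symbol. Genes named from a list were taken from the highest and lowest 2 by mean day difference, and not all of those are named. A few were instead named for their role after values were seen, among them Rny1, Nono, Sfpq, Nr3c1, Tug1, the cell markers and the neighbours. The treatment effect was fitted with limma 3.58.1 in R 4.3.3 (lmFit, eBayes, two-sided, Benjamini-Hochberg), with an additive term for day and 1 residual degree of freedom. Days stand in for replicates there. A p-value sets the mean effect over both days against an error that rests on how the effect differs between the days. That spread may be technical, and an effect that changes with the day, as for some Gas5 features, enters it as error. The fit was also run on simulated data in which the citalopram effect was equal on both days. That simulation held no effect that changes with the day, so it says nothing about such effects. Python 3.11.15, numpy 2.4.6, pandas 2.3.3 and matplotlib 3.10.9 did the rest. Alternatives were 3 scalings, other floors, other feature sets and other limma settings; the effect of scaling on the lists was added after the data were seen. The number of arrays limits the precision.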

Additional observations from a re-analysis of the deposited data

Results flagged for a closer look

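Malat1 and the 4 Gas5 features were flagged because citalopram and control differed in opposite directions on the 2 days, which was not particular to them. The 27 snoRNA features with a measured host had a median citalopram minus control difference of 0.11 at day 7 and -0.26 at day 3. Snord47, of a Gas5 intron, had 0.09 at day 7 and -0.65 at day 3. The citalopram difference at day 7 minus that at day 3 was 0.87 for Malat1 feature 10465244, where citalopram was above control at day 7 by 0.78 and differed from it at day 3 by -0.09. For Gas5 it was 1.47 for feature 10351039, with 0.63 at day 7 and -0.84 at day 3. It was 0.93 for feature 10351035, with 0.49 at day 7 and -0.44 at day 3. It was 0.60 for feature 10351037, with 0.10 at day 7 and -0.50 at day 3, and 0.33 for feature 10351026, with 0.33 at day 7 and -0.00 at day 3. Each value comes from 1 array per group, so the difference between days was not tested, and the day 3 values of Malat1 and of feature 10351026 lie close to 0.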

How the results depend on the processing

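No paired analysis was possible because each group holds 1 array, so no replicate numbers pair the samples; the limma fit sets arrays side by side within a day through its day term, and without that term it also called 0 features. Every array enters alone, so no array could be left out while keeping its group. For single members, 187 values under the alternatives stayed on the same side of 1.5-fold as the value reported and within 1.5-fold of it where it was past that threshold, and 5 did not. Among values near 0, the Vaultrc5 difference between citalopram and control at day 3 took either sign across the 3 scalings, between -0.00 and 0.01. The 5 were Gas5 feature 10351026 at 0.51 for the day difference with citalopram, Gas5 feature 10351037 at 0.55 for the excess of that difference over control and Gas5 feature 10351039 at 0.58 for citalopram minus control at day 7, each with arrays centred on their medians, and, with the mean over a gene's features, the Gas5 control day difference at 0.32 and the Malat1 citalopram day difference at 1.11. limma called no member in any of 10 settings.

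Counts over all features moved more, and the cause was not tested except where the setting itself adds or removes features. With features lacking a symbol included, the day comparison gave 2255 at least 1.5-fold higher, 592 lower and 1100 at least 2-fold higher with citalopram, and 1375, 414 and 396 in control. The citalopram comparison then gave 918 higher and 330 lower at day 7, and 463 higher and 583 lower at day 3. With 1 feature per gene, 244 were 1.5-fold and 53 were 2-fold higher between days with citalopram and 32 were 2-fold higher in control, while citalopram against control gave 68 higher at day 7 and 37 lower at day 3. With arrays centred on their medians, 201 were higher and 944 lower between days with citalopram, and 367 lower in control. Quantile normalization gave 550 lower with citalopram. With the floor at the 60th percentile, 131 were 1.5-fold and 37 were 2-fold higher between days in control, and 36 were higher and 30 lower with citalopram at day 3. limma called 22 features after quantile normalization, 13 higher and 9 lower, 1 after cyclic loess and 1 after median centring.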
